A study of Mus musculus with 8 samples.

Results

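Tubulins are the building blocks of microtubules, and 10 genes for their α and β isotypes were followed in pancreatic islets of Fzd9 KO and Fzd9 WT mice. The genes were taken by name, 4 α isotypes (Tuba1a, Tuba1b, Tuba1c and Tuba4a) and 6 β isotypes (Tubb2a, Tubb2b, Tubb3, Tubb4b, Tubb5 and Tubb6), and each was read on its brightest probe set that names exactly 1 gene. Of the 10, 9 had such a probe set, among 22180 genes and 41345 probe sets on the array. The probe set for Tuba4a also names Stk16, so Tuba4a was not analysed here. Expression was measured in 4 Fzd9 KO and 4 Fzd9 WT mice of the C57Bl/6 strain, males and females of 8 to 12 wk. Mice of both genotypes carried MycER, a Myc fusion that tamoxifen switches on in β-cells through an insulin promoter, and BclXL, a survival protein under another insulin promoter, and all received tamoxifen i.p. for 3 d. Fzd9, a Wnt receptor, was deleted in the whole animal and not in islets alone. Per the study's methods, RNA came from about 20 to 40 hand-picked islets pooled within each mouse, with 1 Affymetrix Mouse Gene 2.1 ST array per mouse, whereas the sample labels name the material as insulinoma.

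α- and β-tubulin pair into heterodimers, which stack into microtubules. In β-cells the microtubule mesh carries insulin granules and limits how many reach the membrane, and during division the same subunits form the spindle. Isotypes differ mainly in their acidic tails, where motors and modifying enzymes act. Cells also sense free tubulin. When it is in excess, TTC5 binds nascent tubulin chains and their mRNAs are degraded, so that tubulin mRNAs are under shared control in addition to the control of each promoter.

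Promoters of the 3 isotypes that fell in KO islets, and of Tuba1b, the α isotype beside them that did not, are shown because these 4 genes carry the differences described below. In the RefSeq annotation Tuba1a, Tuba1b and Tuba1c neighbour each other with 0 protein-coding genes between Tuba1a and either of the others. Each sequence holds the 250 bases before the RefSeq start (GRCm38.p6) and reads 5′ to 3′ on the strand of the gene. Capitals mark matches to 5 motifs, each searched on both strands. They are the CCAAT box with the letters CCAAT, the GC box of Sp factors with the letters GGGCGG, the TATA box with the letters TATAA, the E-box that Myc binds with the letters CACGTG, and the CRE of CREB and ATF factors with the letters TGACGTCA.
Tuba1a, chr15:98953502-98953751, minus strand: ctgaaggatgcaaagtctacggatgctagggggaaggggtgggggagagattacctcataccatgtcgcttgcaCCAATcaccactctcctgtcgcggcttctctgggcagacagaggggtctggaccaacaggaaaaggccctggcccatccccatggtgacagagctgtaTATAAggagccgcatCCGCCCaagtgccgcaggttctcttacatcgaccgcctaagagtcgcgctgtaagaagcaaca
Tuba1c, chr15:99029641-99029890, plus strand: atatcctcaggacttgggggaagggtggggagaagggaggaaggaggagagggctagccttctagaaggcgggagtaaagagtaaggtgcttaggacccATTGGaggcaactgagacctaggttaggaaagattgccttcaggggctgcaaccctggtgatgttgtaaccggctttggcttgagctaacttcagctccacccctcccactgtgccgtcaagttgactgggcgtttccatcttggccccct
Tubb4b, chr2:25224703-25224952, minus strand: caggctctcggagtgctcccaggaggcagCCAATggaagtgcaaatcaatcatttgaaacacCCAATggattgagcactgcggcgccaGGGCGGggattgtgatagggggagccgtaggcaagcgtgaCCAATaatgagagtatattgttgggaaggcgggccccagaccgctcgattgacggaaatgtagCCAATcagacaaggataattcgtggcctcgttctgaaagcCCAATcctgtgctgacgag
Tuba1b, chr15:98934391-98934640, minus strand: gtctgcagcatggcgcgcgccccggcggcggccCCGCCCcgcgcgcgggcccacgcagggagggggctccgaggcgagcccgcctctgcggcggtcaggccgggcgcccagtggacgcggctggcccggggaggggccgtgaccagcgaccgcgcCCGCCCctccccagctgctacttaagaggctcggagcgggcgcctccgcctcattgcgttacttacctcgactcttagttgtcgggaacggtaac
The windows of Tuba1a, Tuba1c and Tubb4b each hold a CCAAT box and that of Tuba1b holds none. Tubb4b has 5 of them, a number reached by 0.213% of the 32851 promoter windows. At least 1 CCAAT box was found in 33.8% of all windows and in 5 of the 8 members with a RefSeq promoter (Tuba1a, Tuba1c, Tubb3, Tubb4b and Tubb5). Tubb3 and Tubb5 among these did not fall in KO islets. Tuba1b holds 2 GC boxes, and at least 1 was found in 32.7% of all windows and in 6 of the 8 members. An E-box stood only in the window of Tubb5, 75 bases before its start, against 6.02% of all windows, and a CRE only in that of Tubb2a, 59 bases before its start, against 1.55%. A TATA box was found for Tuba1a, Tubb2a and Tubb3 and in 22.8% of all windows. Tubb2b and Tubb6 have no entry among these promoters. These matches describe the letters of the windows and nothing about binding.

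Tuba1a, Tuba1c and Tubb4b fell in KO islets, and no measured isotype rose. A gene is said to fall or rise here when its unadjusted p in limma was under 0.05 and its fold at least 1.2, which is the study's own threshold. The log2 difference below is the log2 fold change, KO minus WT, and SE its standard error in limma. At this threshold 3 of the 9 measured isotypes were lower, against 1.17% of all genes read in the same way and 1.73% of the genes brighter than the median probe set. Higher were 0 of the 9, against 1.28% of all genes, and either way the share of all genes was 2.45%. Over all probe sets 1.59% were lower, 1.9% higher and 3.49% either. The median log2 difference was −0.38 over the isotypes, −0.0001 over all genes and −0.05 over those brighter than the median. The isotype median is the value of Tubb2b, whose levels are near background. A negative value was found for 8 of 9 isotypes, against 50.0% of all genes and 57.6% of those brighter than the median. No isotype passed a Benjamini-Hochberg adjustment over all probe sets (limma, adjusted p = 0.999987 for each), and no probe set of the array did. Since whole islets were measured, fewer cells of a type and less RNA per cell cannot be told apart.

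**Figure D1:**
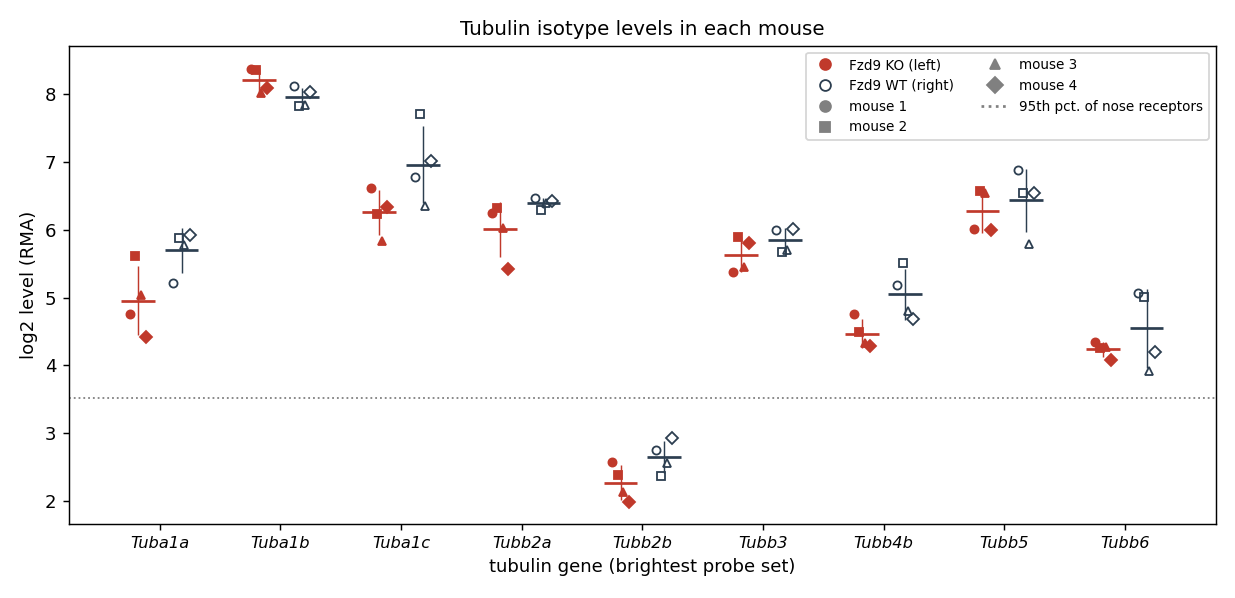
Log2 level (RMA, y axis) of the 9 measured tubulin genes on their brightest probe sets, with KO mice (filled, left) and WT mice (open, right), 1 symbol per mouse, horizontal lines at the means and vertical lines over 1 SD on either side. The dotted line is the 95th percentile of olfactory and vomeronasal receptors (3.52), and Tubb2b is the only gene under it. No gene separates the genotypes fully on these probe sets.

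Tuba1a encodes the α-tubulin that dominates in neurons, whose gene program β-cells share in part. On its brightest probe set (17321474) the log2 level was 4.76, 5.62, 5.03 and 4.42 in KO mice 1 to 4, against 5.21, 5.88, 5.78 and 5.92 in WT mice 1 to 4. The genotypes overlapped because KO mouse 2 was above WT mouse 1. The means were 4.96 ± 0.51 in KO and 5.70 ± 0.33 in WT islets (SD, n = 4 each), a log2 difference of −0.74 (SE 0.29), which is 1.67-fold lower in KO (limma, unadjusted p = 0.0279). The exact two-sided permutation test over the mice gave p = 0.0571, where the smallest that 4 against 4 allow is 0.0286.

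The second probe set of Tuba1a (17314682) was dimmer and separated the genotypes. It stood at 2.85, 2.99, 3.01 and 2.49 in KO mice 1 to 4, against 3.63, 3.96, 3.67 and 3.97 in WT mice 1 to 4. Every KO mouse was thus below every WT mouse, which is the case for 1.11% of all genes, and 2.36% separate in either direction. The fitted log2 difference was −0.98 with an SE of 0.20 (limma, unadjusted p = 0.000717, place 19 of the 41345 probe sets, and exact permutation test, p = 0.0286). The level is near background, so the size of this difference is not exact and no fold is given. The 4 KO values were below and the 4 WT values above 3.52, the 95th percentile of 1405 probe sets for olfactory and vomeronasal receptors, genes of the nose that gauge background here. Which part of the gene each of the 2 reads was not analysed here.

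Tuba1b, a ubiquitous α-tubulin that makes up much of the α-tubulin of dividing cells, did not fall. Its log2 level was 8.37, 8.36, 8.02 and 8.09 in KO mice, against 8.11, 7.83, 7.84 and 8.03 in WT mice, so the genotypes overlapped and the 2 highest values were those of KO mice 1 and 2. The means were 8.21 ± 0.18 in KO and 7.95 ± 0.14 in WT islets (SD, n = 4 each), a log2 difference of 0.26 (SE 0.19) that did not pass the threshold. It was the only measured isotype with a positive value.

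Tuba1c is another α-tubulin with wide expression. On its brightest probe set (17321481) it stood at 6.62, 6.23, 5.83 and 6.34 in KO mice and at 6.78, 7.71, 6.35 and 7.01 in WT mice. WT mouse 2 was the highest, and WT mouse 3 lay within the KO range. The means were 6.26 ± 0.33 in KO and 6.96 ± 0.57 in WT islets (SD, n = 4 each), a log2 difference of −0.71 (SE 0.30), or 1.63-fold lower in KO (limma, unadjusted p = 0.0433, and exact permutation test, p = 0.0571). The other probe set of Tuba1c (17314693) did not show the fall. Its level averaged 5.89 ± 0.32 in KO and 6.06 ± 0.25 in WT islets (SD, n = 4 each), and its log2 difference of −0.18 (SE 0.23) did not pass. Tuba1a, Tuba1b and Tuba1c are close copies in their coding sequence, and how far their probes tell them apart was not analysed here.

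Tubb4b, a β-tubulin found in most cells and in cilia, was the only β isotype that fell. Its log2 level was 4.75, 4.49, 4.33 and 4.28 in KO mice, against 5.19, 5.51, 4.8 and 4.69 in WT mice. The ranges overlapped only in that KO mouse 1 was above WT mouse 4. The means were 4.47 ± 0.21 in KO and 5.05 ± 0.38 in WT islets (SD, n = 4 each), a log2 difference of −0.58 (SE 0.23), or 1.5-fold lower in KO (limma, unadjusted p = 0.0329, and exact permutation test, p = 0.0571). Among WT mice, though not among KO mice, the order of Tubb4b was that of stromal and endothelial markers. The median log2 difference was −0.25 over the stromal markers and 0.41 over the endothelial ones. The mean log2 level over 7 stromal markers was 4.72, 4.78, 4.49 and 4.02 in KO mice 1 to 4, against 5.09, 5.88, 4.32 and 3.88 in WT mice 1 to 4, and over 6 endothelial markers 6.50, 5.84, 7.12 and 5.48 in KO mice, against 6.10, 6.97, 5.39 and 4.73 in WT mice. WT mouse 2 was the highest mouse in Tubb4b, Tuba1c and the stromal markers and the lowest of all 8 in the mean of 9 β-cell markers, at 6.56, against 6.68 to 7.02 in KO and 7.09 to 7.45 in the other WT mice. The part of these cells in the Tubb4b and Tuba1c values was not tested.

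Of the other 5 β isotypes none passed the threshold, and each had a log2 difference below 0. Tubb2a, a β-tubulin enriched in neurons, was at 6.25, 6.32, 6.03 and 5.42 in KO mice, against 6.46, 6.29, 6.39 and 6.42 in WT mice. The WT mice lay close together and KO mouse 4 was low, with a log2 difference of −0.39 (SE 0.23). Without KO mouse 4 it was −0.19. Tubb2b, its neighbour and near copy, had 1.99 to 2.58 in KO and 2.38 to 2.93 in WT islets, all under the 95th percentile of the nose receptors, at which a difference is hard to read. Its log2 difference was −0.38 (SE 0.21) there and −0.05 (SE 0.23) on its dimmer probe set. Tubb3, the β-tubulin that marks neurons and is made by endocrine cells too, averaged 5.63 ± 0.26 in KO and 5.84 ± 0.18 in WT islets (SD, n = 4 each), a log2 difference of −0.21 (SE 0.21), which was −0.12 without KO mouse 1. Tubb5, the chief β-tubulin of dividing cells, was at 6.01, 6.57, 6.55 and 6.00 in KO mice, against 6.89, 6.54, 5.79 and 6.54 in WT mice. WT mouse 3 was the lowest of all 8 mice, and the log2 differences were −0.16 (SE 0.28) and −0.15 (SE 0.25) on the 2 probe sets. On the brighter one it was −0.007 without WT mouse 1, −0.06 without KO mouse 1 or KO mouse 4, −0.25 without KO mouse 2 or KO mouse 3, and −0.37 without WT mouse 3. Tubb6, a β-tubulin of many tissues, had 4.34, 4.25, 4.28 and 4.08 in KO mice, against 5.06, 5.0, 3.92 and 4.19 in WT mice. The WT mice fell into a high and a low pair. KO mice 1 to 3 lay between the pairs and KO mouse 4 within the low pair. The log2 difference was −0.31 (SE 0.28). It was −0.13 without WT mouse 1, −0.15 without WT mouse 2 and −0.52 without WT mouse 3.

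**Figure D2:**
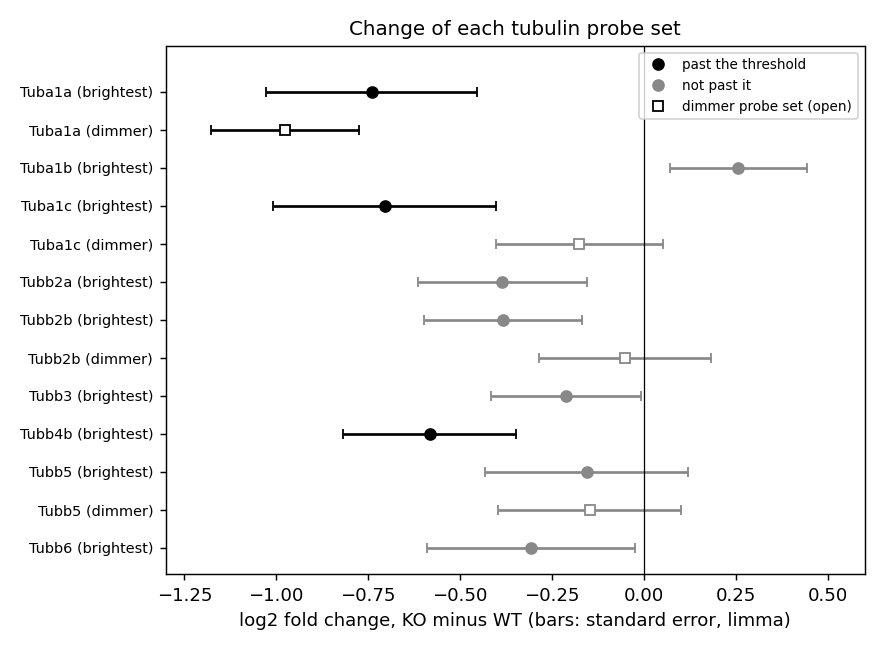
Log2 fold change (KO minus WT, x axis) of each of the 13 probe sets that name 1 tubulin gene of the set, with the SE from limma as bars. Black marks passed the threshold and grey ones did not, and squares are dimmer probe sets of the same gene. Both Tuba1a probe sets lie furthest to the left, at −0.74 and −0.98, and Tuba1b alone lies to the right of 0.

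The calls on the brightest probe sets were near the threshold, and no fit with 1 mouse left out kept all 3. A call could be lost without a smaller difference, since a fit on fewer mice has a larger SE. Without KO mouse 4, for example, Tuba1c had a log2 difference of −0.73 (SE 0.35) and did not pass (limma, unadjusted p = 0.0648). Of the 3 isotypes, none passed without WT mouse 2 or without KO mouse 4, and Tuba1a alone passed without WT mouse 1, KO mouse 2 or KO mouse 3. Tubb4b alone passed without WT mouse 4, while Tuba1c and Tubb4b passed without WT mouse 3 or KO mouse 1. The log2 differences ran from −0.96 to −0.56 for Tuba1a, from −0.91 to −0.46 for Tuba1c, where −0.46 was without WT mouse 2, and from −0.70 to −0.43 for Tubb4b. On the dimmer probe set of Tuba1a the fitted value stayed between −1.03 and −0.86 and passed in each of the 8 fits with 1 mouse left out. This probe set was singled out after its values were seen.

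**Figure D3:**
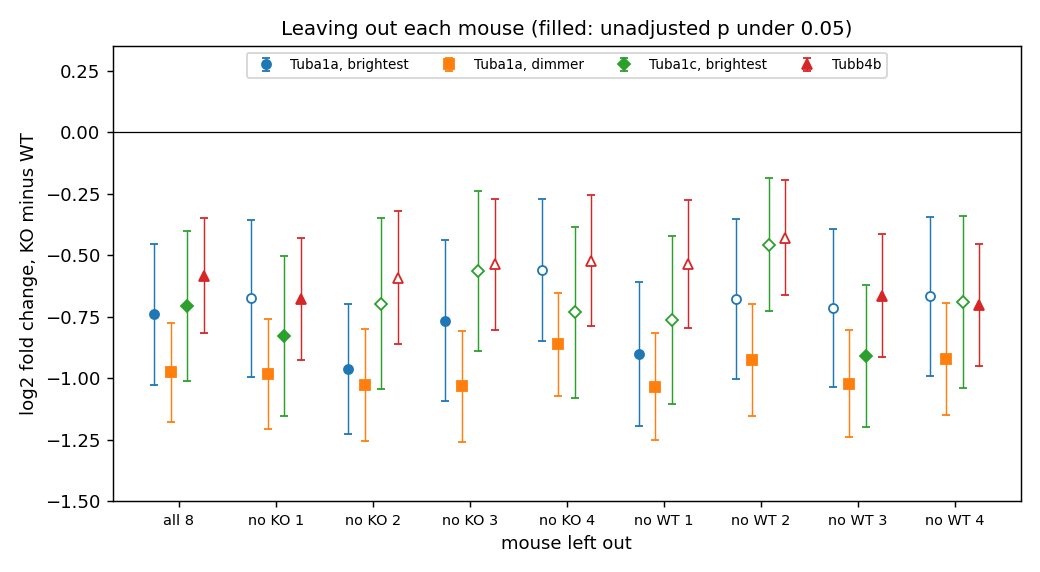
Log2 fold change (KO minus WT, y axis) with its SE for Tuba1a on both probe sets, Tuba1c and Tubb4b, with all 8 mice and with each mouse left out in turn (x axis). Filled symbols have an unadjusted p under 0.05 (limma). All values are below 0, and only the dimmer Tuba1a probe set is filled throughout.

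Whether isotypes changed unequally was asked with the log2 level of one isotype minus that of another in the same mouse. Such a value sets 2 probe sets against each other and has no meaning as a level, and only its shift between KO and WT mice is read. Of 6 such pairs 5 could be run, the pair with Tuba4a being left out. Tuba1a minus Tuba1b was −3.67 to −2.75 in KO and −2.90 to −1.95 in WT mice, so that the KO mean was −0.997 relative to the WT mean (SE 0.32). This was not past the test (exact two-sided permutation test, p = 0.0571, adjusted p = 0.286 over the 5 pairs). The shift between Tuba1a and Tuba1c was −0.04 (SE 0.44), and that between Tubb2a and Tubb2b was −0.003 (SE 0.15). For Tubb3 against Tubb5 it was −0.06 (SE 0.27) and for Tubb6 against Tubb5 −0.15 (SE 0.23), each with an adjusted p of 1 in the exact permutation test. With SEs of this size, these 4 pairs are not shown to have changed alike.

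**Figure D4:**
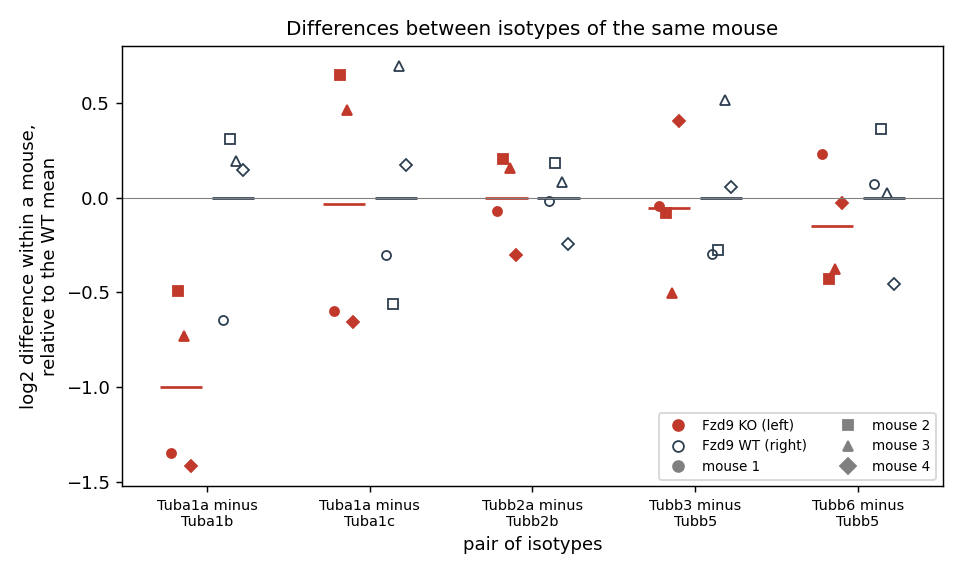
Difference in log2 level between 2 tubulin isotypes of the same mouse, relative to the WT mean of the pair (y axis), for the 5 pairs that could be run (x axis), with KO mice filled on the left, WT mice open on the right and lines at the means. For Tuba1a minus Tuba1b 3 of 4 WT mice lie above 0 and all KO mice below it, and WT mouse 1 lies among the KO mice.

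Mean levels per mouse describe the family. Over the 3 α isotypes the mean log2 level was between 6.28 and 6.74 in KO mice and between 6.66 and 7.14 in WT mice. Over the 6 β isotypes it was between 4.6 and 4.99 in KO and between 4.86 and 5.39 in WT mice. In both families KO mouse 2 was the highest KO mouse, above WT mouse 3, which was the lowest WT mouse. Across the 8 arrays Tubb4b varied most closely with Tuba1c (Pearson's r = 0.85, Spearman's rho = 0.76) and with Tubb6 (r = 0.79, rho = 0.52), and Tubb2a with Tubb2b (r = 0.83, rho = 0.83). Tuba1a had its highest value with Tubb2a (r = 0.75, rho = 0.67). After each genotype's mean was taken off, r was 0.71 for Tubb4b with Tuba1c, 0.81 for Tubb4b with Tubb6, 0.71 for Tubb2a with Tubb2b and 0.57 for Tuba1a with Tubb2a. The highest such r of all pairs was 0.84, for Tuba1b with Tubb2b, against 0.02 before the means were taken off. Tubb2b is near background. These are descriptions over 8 arrays whose points share the genotype difference and the scaling of each array.

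Among 12462 other genes above the median level, those with a pattern most like an isotype over the 8 arrays were chosen by Pearson's r, and nothing follows from this for their function. For Tuba1a they were Tmem143 (r = 0.93), Slc39a14, a zinc transporter (0.92), Ciao3 (0.91), Akap13 (0.90) and Col16a1 (0.89), of which Tmem143 alone fell, with a log2 difference of −0.57 (SE 0.24). For Tuba1c they were Ywhaz, a 14-3-3 protein (0.97), Fam160b1 (0.96), the adhesion molecule Icam1 (0.96), the inducible heat shock protein gene Hspa1a (0.95) and Orm1 (0.94). Hspa1a had a log2 difference of −1.33 (SE 0.66) and did not pass. For Tubb4b they were Plcb4 (0.96), Irgm2, an interferon-induced GTPase (0.96), Aqp1, a water channel (0.94), Xdh (0.94) and Prcp (0.94), and Irgm2 fell by 0.81 on the log2 scale (SE 0.27).

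Few other genes of the microtubule machinery passed the threshold. Of 149 measured genes in 8 lists, 2 fell and 1 rose, so that 1.34% were lower, against 1.17% of all genes, and their median log2 difference was −0.05. Of 8 other tubulin genes Tuba8 alone fell. This α-tubulin was at 2.53, 3.03, 2.77 and 2.5 in KO and at 3.33, 3.34, 3.07 and 2.97 in WT mice, a log2 difference of −0.47 (SE 0.20) with overlap, and as all values were under 3.52 its size is not exact. Tubd1, as dim, did not pass but was without overlap, at 2.24 to 2.93 in KO and 3.03 to 3.23 in WT mice. Among all genes 1.11% were lower without overlap. Tubg1, the γ-tubulin that seeds microtubules, had a log2 difference of 0.05 (SE 0.18). None of 12 folding cofactors and prefoldin subunits passed, which turn new tubulin chains into heterodimers, and their log2 differences ran from −0.58 for Tbcc (SE 0.26) to 0.42 for Tbcel (SE 0.20), with a median of −0.003.

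Of the 10 measured genes listed for tubulin mRNA autoregulation none passed, and apart from Ttc5 and Scaper all were Cnot deadenylase subunits. Of the 10, 9 had a value below 0, with a median of −0.17. Among all genes 50.0% were below 0, and 57.6% of those brighter than the median. Ttc5, which recognises nascent tubulin, was at −0.27 (SE 0.25), its adaptor Scaper at −0.06 (SE 0.24) and the deadenylase subunit Cnot8 at −0.51 (SE 0.24). Of 27 tubulin-modifying enzymes, which add or remove residues on the tails or acetylate α-tubulin, Ttll2, of the tubulin tyrosine ligase-like family, alone rose. It was at 2.88, 3.14, 2.83 and 2.80 in KO and at 2.38, 2.11, 2.19 and 2.75 in WT mice, without overlap but below the 95th percentile of the nose receptors, a fitted log2 difference of 0.56 (SE 0.21) whose size is not exact. This is 1 gene of 27, where 1.28% of all genes were higher and 2.36% had no overlap in either direction. The acetyltransferase gene Atat1 had a value of 0.01 (SE 0.22), the deacetylase gene Hdac6 one of 0.08 (SE 0.22) and the ligase gene Ttl one of −0.05 (SE 0.25).

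None of 31 microtubule-associated proteins passed. Map1b, bright in islets, was at 8.68 in KO and 8.77 in WT islets, a log2 difference of −0.09 (SE 0.19). Among 15 destabilizing and severing proteins none passed either. Stmn2, a stathmin of neurons and endocrine cells, averaged 3.16 ± 0.48 in KO and 4.07 ± 0.87 in WT islets (SD, n = 4 each). Its log2 difference was −0.91 (SE 0.42), with overlap (2.54 to 3.56 in KO and 3.38 to 5.27 in WT mice). As values of both genotypes lay under 3.52, its size is not exact. None of 10 genes of the γ-tubulin ring complex passed. Of 36 motor genes Dctn1, the large subunit of dynactin that ties dynein to its cargo, alone fell. It stood at 4.97, 5.23, 5.59 and 5.21 in KO mice, against 5.59, 5.92, 5.78 and 5.65 in WT mice, with a log2 difference of −0.49 (SE 0.20) and KO mouse 3 just under WT mouse 1. This is 1 gene of 36 past the threshold, where 1.17% of all genes were lower. Actr1a of the same list did not pass but was also without overlap, at 5.39 to 6.04 in KO and 6.10 to 7.09 in WT mice. Its log2 difference was −0.59 (SE 0.27). Among all genes 1.11% were lower without overlap.

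**Figure D5:**
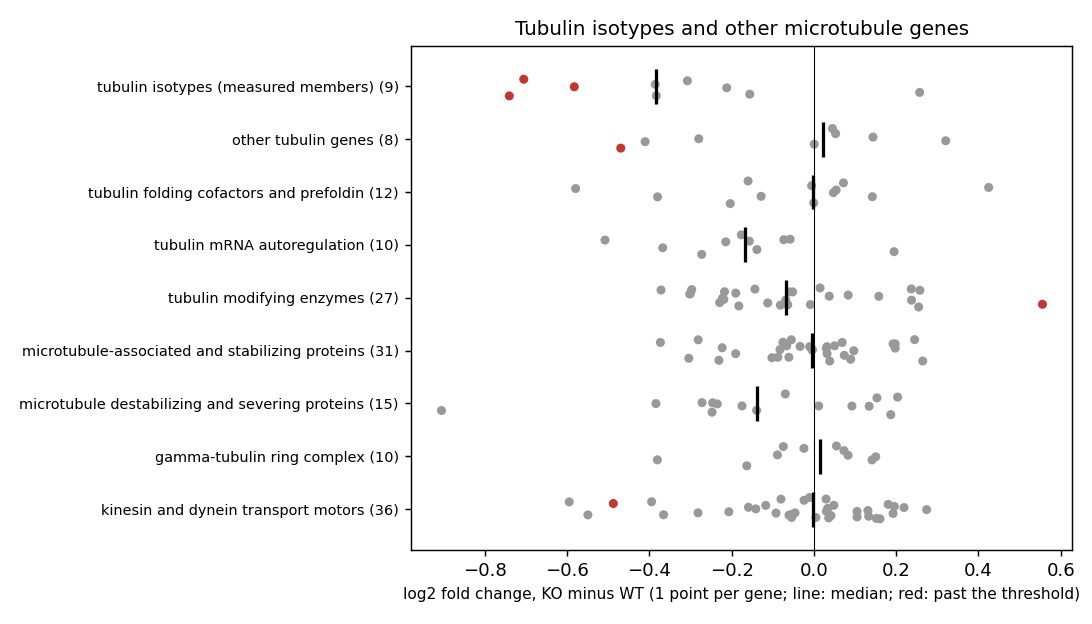
Log2 fold change (KO minus WT, x axis) of the 9 measured tubulin isotypes and of the 149 genes of 8 other microtubule lists (rows, number of genes in brackets), 1 point per gene, with the median of each row as a line and genes past the threshold in red. The median of the isotypes is −0.38, the value of Tubb2b, whose levels are near background. The medians of the other rows lie between −0.17 and 0.02.

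Array medians lay between 2.90 and 3.17. KO mouse 1 and WT mouse 3 correlated least with the other arrays, with mean correlations of 0.893 and 0.897, against 0.917 to 0.926 for the other 6. These 2 mice had the highest mean log2 levels over 12 measured acinar markers of their genotypes, 6.96 and 5.97, against 4.16 to 5.33 in the other KO and 4.26 to 5.13 in the other WT mice. Without both mice Tuba1a on its brightest probe set had a log2 difference of −0.65 and did not pass, whereas Tuba1c and Tubb4b did. Islet hormone genes were bright in both genotypes, with Iapp, a β-cell peptide, at 10.6 in KO and 10.7 in WT islets and Gcg, of α-cells, at 8.94 in KO and 9.41 in WT islets. Tuba1a, Tubb2a and Tubb3 are also genes of nerves. Of 14 measured markers of neurons and Schwann cells (of 16 listed) none passed, and their median log2 difference was −0.20. Their mean log2 level was 3.82 to 4.07 in KO and 4.05 to 4.28 in WT mice, and their part in the tubulin values was not tested. None of the markers of 8 further cell types passed, though those of α-cells had a median log2 difference of −0.48 over 3 measured genes, with Ttr at −0.61 (SE 0.29), and their part was not tested either. Fzd9 itself was dim, at 2.53 ± 0.35 in KO and 2.88 ± 0.67 in WT islets (SD, n = 4 each), and as the site of its probes relative to the deletion is not given, it does not check the genotype labels.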

How the data were processed

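The values are log2 expression, 1 per probe set and array, which the authors made with RMA and deposited (the submitters' processing notes list RMA and Partek and no versions). RMA corrects background, brings arrays to a common scale and sums the probes of a set, though array medians still differed. No normalization was added. Of 41345 probe sets 23521 name 1 gene, and symbols were updated through Entrez ID for 23328. All probe sets were tested without a filter, KO minus WT, with limma (version 3.58.1, R 4.3.3) and adjusted by Benjamini-Hochberg. The paper names no test for the arrays themselves, and a t-test for 2 groups in general. The isotypes, the other lists and the rule for named genes (isotypes, up to 3 called genes per list, 5 most similar genes per called isotype, Fzd9) were chosen with earlier results of these data known, and genes named outside the rule after their values were seen. Both genotypes use the numbers 1 to 4, the labels name no pairing, and mice were treated as unpaired. Deviations of mice with the same number correlated at −0.10 to 0.24. Mice with different numbers were not compared, so this cannot show whether the numbers pair mice. The limma and t-test fits and the threshold were tested on simulated data, with known differences placed in some probe sets. The other steps were not tested in this way. The number of arrays limits the precision. Alternatives were other moderation, weights, scalings, a filter, probe set choice, the t-test, the mouse number as a block and leaving out mice. Leaving out both KO mouse 1 and WT mouse 3, and the runs on second probe sets, were added after seeing the data.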

Additional observations from a re-analysis of the deposited data

How the results depend on the processing

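Every isotype kept its direction on its brightest probe set in all alternatives run, 8 lower and Tuba1b higher in KO, Tubb2b having no value under the filter on dim probe sets. The number of isotypes past the threshold was 3, or 2 by the methods' t-test, cyclic loess and averaging the probe sets per gene, each of which lost Tuba1c, and 0 after the Benjamini-Hochberg adjustment. Leaving out 1 mouse at a time gave 0 to 2. With the mouse number as a replicate block it was 3, with 1484 probe sets past the threshold in all, and the block changed no call of an isotype. Over all probe sets 1444 passed, 630 among those above the median level alone, fewer probe sets being tested there, and 0 after the adjustment, where limma had 1444 and the methods' t-test 1622 at an unadjusted p under 0.05. Of the other microtubule genes 3 passed, 1 after quantile normalization, and 1 to 4 with 1 mouse left out (1 without WT mouse 2). The cause was not tested. The small shift between Tubb2a and Tubb2b turned to 0.085 after quantile normalization and to 0.11 after cyclic loess, and with 1 mouse left out it ran from −0.085 to 0.097, that between Tuba1a and Tuba1c from −0.26 to 0.20 and that between Tubb3 and Tubb5 from −0.21 to 0.12. Levels near those of the nose receptors (Tubb2b, the dimmer Tuba1a probe set in KO) limit what can be read.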
